A study of Mus musculus with 6 samples.

Results

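The JAK-STAT pathway and its cytokine receptors were followed in the atria of obese and lean mice through 47 genes, taken by name from the 43432 genes of the deposited table, by a rule that uses no measured value, although the list was drawn up with earlier results of these data known. They are 4 JAK kinases, 6 STAT factors, 8 SOCS and CISH inhibitors, 3 further inhibitors (Pias1, Pias3 and Ptpn6), 5 cytokines and 21 receptor chains. All 47 were found once each. The obese mice had been fed a high-fat diet (HFD) and the lean mice a control chow, for 10 weeks from 6 weeks of age. Both groups were wild-type C57/Bl6J mice with no transgene, 3 per group, and each sample, called a mouse here, is RNA from right and left atrial tissue, so all cell types of the atrium contribute to a value. The labels disagree on the diet, since the treatment field of each of the 6 samples names the other diet than its title and its column in the table. Groups were taken from the titles, and every direction below would turn around if the treatment field were right.

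A cytokine brings the chains of its receptor together on the cell surface, and the JAK kinases bound to the chains then phosphorylate each other, the receptor and a STAT factor. The phosphorylated STAT pairs with another, enters the nucleus and binds DNA to switch on its target genes, among them Socs and Cish genes, whose products in turn dampen the receptor that started the signal. In the heart the gp130 branch, which ends mainly on STAT3, is known for its part in myocyte survival and in the response to injury, while the common gamma chain and colony-stimulating factor receptors belong mainly to blood-derived cells. The table measures RNA only, so neither the phosphorylation of a JAK or STAT nor the amount of a receptor protein was measured.

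The values are normalized counts, that is reads per gene divided by one size factor per sample. Between 15874251 and 28971508 reads lay on genes, and 3 reads, taken as the smallest signal, amount to between 2.05 and 3.41 normalized counts (counting error only). Lean mouse 2 was the most deeply sequenced and stood apart, with 30.7% of its reads on mitochondrial genes (19.5% to 24.4% in the others) and a summed level of 4 ventricular myocyte markers of 17399 normalized counts (6882 to 9866 in the others). The 6 atrial myocyte markers were expressed in every sample, but all 6 had a log2 fold change below 0 (median -0.42), 3 of them with an unadjusted p under 0.05, and they summed to 637233 and 739701 in obese mice 1 and 2 against 978492 to 1071740 in the other 4. The 4 ventricular markers also lay below 0 (median log2 fold change -0.40). What part the myocyte markers have in the differences below was not tested. Obese mouse 3 stood apart in its 8 T and NK cell markers, which summed to 175 normalized counts against 27.5 to 63.8 in the other mice. The 10 macrophage and monocyte markers summed to between 12354 and 14118 in the obese and between 8730 and 11412 in the lean mice, and the 6 endothelial markers to between 17945 and 19738 and between 15437 and 15850, so for both lists the groups did not overlap. The endothelial separation came from Pecam1 and Vwf, without which the sums were 8059 to 8913 and 7791 to 8672 and overlapped.

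Of the 47 genes, 44 had a mean of at least 10 normalized counts and were tested, together with all 15275 genes above that limit, by limma on log2(normalized count + 1) with Benjamini-Hochberg adjustment. At an adjusted p under 0.05 one member was called, Il4ra, which was higher in obese atria (2.27% of the members tested), and none was lower. Among all genes tested 114 passed, or 0.746%, with 0.484% higher and 0.262% lower. At an unadjusted p under 0.05 there were 11 members higher and 4 lower in obese atria, 34.1% of the 44, where 12.2% of all genes passed (6.66% higher and 5.55% lower). The 3 obese and 3 lean values did not overlap for 13 of the 44, 10 of them higher and 3 lower, against 18% of all genes (8.86% higher and 9.17% lower). Without Il7r, which reached the limit only through its obese level, 10 of 43 members were higher and 4 lower at an unadjusted p under 0.05 and 9 and 3 did not overlap. The median log2 fold change of the members was 0.07, beside 0.005 for all genes, and 28 of the 44 lay above 0 (50.8% of all genes). The 15 members with an unadjusted p under 0.05 were 9 receptor chains, Socs3, Socs7, Stat3, Stat5a, Jak3 and Il15, and the other 29 gave no such difference.

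**Figure D1:**
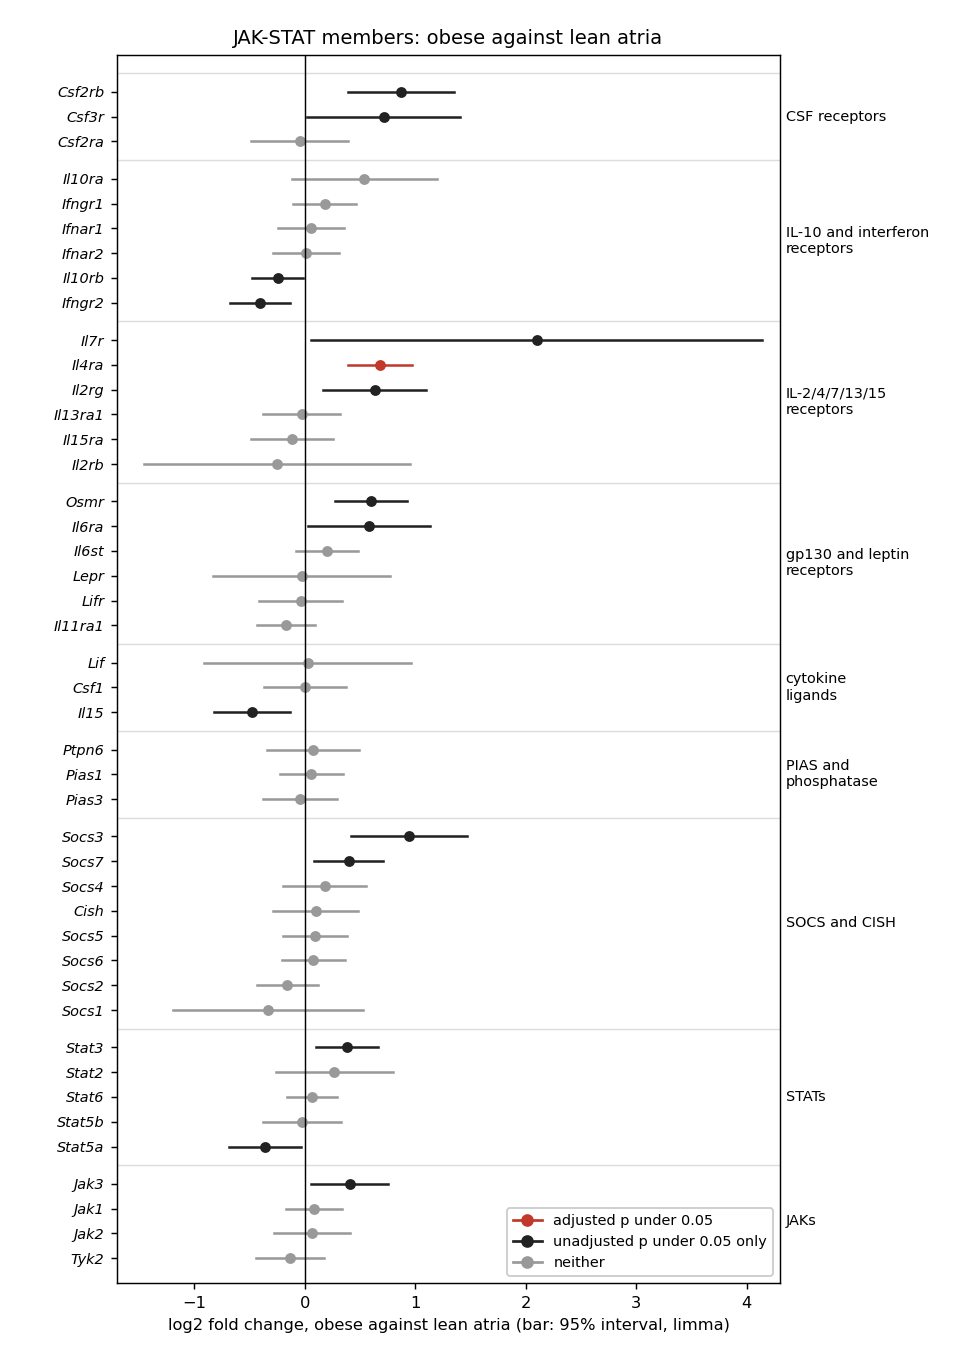
Log2 fold change (obese against lean atria) of the 44 members tested, by role. Points are limma estimates and bars their 95% intervals. Il4ra (red) is the one member with an adjusted p under 0.05, the 14 members in black have only an unadjusted p under 0.05, and those in gray have neither.

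Il4ra (chromosome 7, 125552282 to 125579472, plus strand, GRCm38) encodes the chain that binds IL-4 and lets IL-13 signal through STAT6. Obese mice 1, 2 and 3 gave 507, 488 and 453 normalized counts, against 321, 290 and 291 for lean mice 1, 2 and 3. All 3 obese mice thus exceeded every lean mouse, with means of 483 ± 27.5 and 301 ± 17.8 (SD, n = 3), a ratio of 1.61. The log2 fold change was 0.68 (SE 0.13, 95% interval 0.39 to 0.97, limma adjusted p = 0.0482). In whole atria, a difference in the number of cells of a type and one in RNA per cell cannot be told apart. The log2 fold change stayed between 0.65 and 0.73 when 1 mouse was left out, but the call lay close to the threshold. It held without obese mouse 3 (adjusted p = 0.0292) and was lost without obese mouse 1 (0.139), obese mouse 2 (0.149), lean mouse 1 (0.111), lean mouse 2 (0.194) or lean mouse 3 (0.162). On recovered reads the adjusted p was 0.0506 with edgeR (TMM), 0.0498 with edgeR (RLE) and 0.0026 with DESeq2. These tools called 0.57%, 0.596% and 3.08% of all genes and 0, 1 and 3 of the members, the 3 being Il4ra, Osmr and Socs3.

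Il4ra works with either of 2 partner chains, and for one of them each obese mouse lay above the lean mice. Il2rg, the common gamma chain shared by the receptors for IL-2, IL-4, IL-7 and IL-15, stood at 201, 146 and 248 normalized counts in obese against 125, 125 and 124 in lean mice. The lean mice were nearly identical and each obese mouse lay above them, with a log2 fold change of 0.63 (SE 0.21, adjusted p = 0.237). Il13ra1, which pairs with Il4ra in the receptor that also takes IL-13, stood at 324 ± 16.4 in obese and 333 ± 55.3 in lean atria, and the 95% interval of its log2 fold change ran from -0.37 to 0.32. The ratio of Il4ra to Il13ra1 in normalized counts, not corrected for length, was 1.64, 1.43 and 1.41 in the obese against 1.18, 0.758 and 0.850 in the lean mice, without overlap. The ratio to Il2rg overlapped between the groups, at 2.53, 3.35 and 1.83 against 2.56, 2.32 and 2.35.

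Of the other chains of these receptors, Il7r and Il2rb were low and Il15ra was not. Il7r, the IL-7 receptor alpha chain of lymphocytes and some innate cells, reached 17.1, 13.3 and 19.3 normalized counts in obese against 6.72, 0 and 7.65 in lean mice, from 17, 13 and 17 and from 6, 0 and 7 reads. Every obese mouse lay above every lean mouse, the log2 fold change was 2.10 (SE 0.92, adjusted p = 0.391), and it was 1.09 at its lowest when 1 mouse was left out. Il7r passed the filter on low values only through its obese level. Il2rb, the signaling chain for IL-2 and IL-15, read 14.1, 14.3 and 44.3 in obese against 23.5, 40.4 and 16.4 in lean mice, so the groups overlapped and the high values belonged to obese mouse 3 and lean mouse 2. Il15ra, which presents IL-15 to neighboring cells, ranged from 381 to 527 and from 435 to 584. Besides Il7r, 2 of the 6 receptors in this group (Il4ra and Il2rg) had an unadjusted p under 0.05, both higher in obese mice, and Il4ra passed the adjusted threshold.

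The gp130 receptors bind IL-6, IL-11, LIF and oncostatin M through a private chain and signal through the shared chain Il6st (gp130). Osmr (chromosome 15, 6813577 to 6874969, minus strand), the oncostatin M receptor, gave 663, 846 and 718 normalized counts in obese against 481, 430 and 563 in lean mice. The groups did not overlap, with means of 742 ± 94.2 and 491 ± 67.1 (SD, n = 3) and a log2 fold change of 0.60 (SE 0.15, 95% interval 0.27 to 0.92). The adjusted p was 0.102 with limma, 0.110 with edgeR and 0.0181 with DESeq2, and the unadjusted p stayed under 0.05 whichever mouse was left out. Il6ra, the membrane-bound IL-6 receptor, had 92.4, 135 and 90.9 in obese against 67.2, 58.2 and 85.3 in lean mice, and these values did not overlap either. Its log2 fold change was 0.58 (SE 0.25, adjusted p = 0.383).

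Il6st itself overlapped between the groups, at 4162, 5215 and 4240 normalized counts in obese against 3723, 3716 and 4368 in lean mice, with a log2 fold change of 0.20 (SE 0.13, adjusted p = 0.576). Lean mouse 3 lay within the obese range. Il11ra1, the IL-11 receptor, read 1208, 1124 and 1319 in obese against 1510, 1302 and 1304 in lean mice and so overlapped, with a log2 fold change of -0.17 (SE 0.12, adjusted p = 0.616). Its count is uncertain, since near-identical copies exist (Il11ra2 and Gm13305) and the gene overlaps Galt on the same strand. Lifr, the LIF receptor, stood at 1091 ± 247 and 1102 ± 94.6. Lepr, the leptin receptor, stood at 67.9 ± 18.1 and 72.6 ± 32.3, and its interval of the log2 fold change, from -0.83 to 0.77, leaves room for a sizable difference in either direction.

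**Figure D2:**
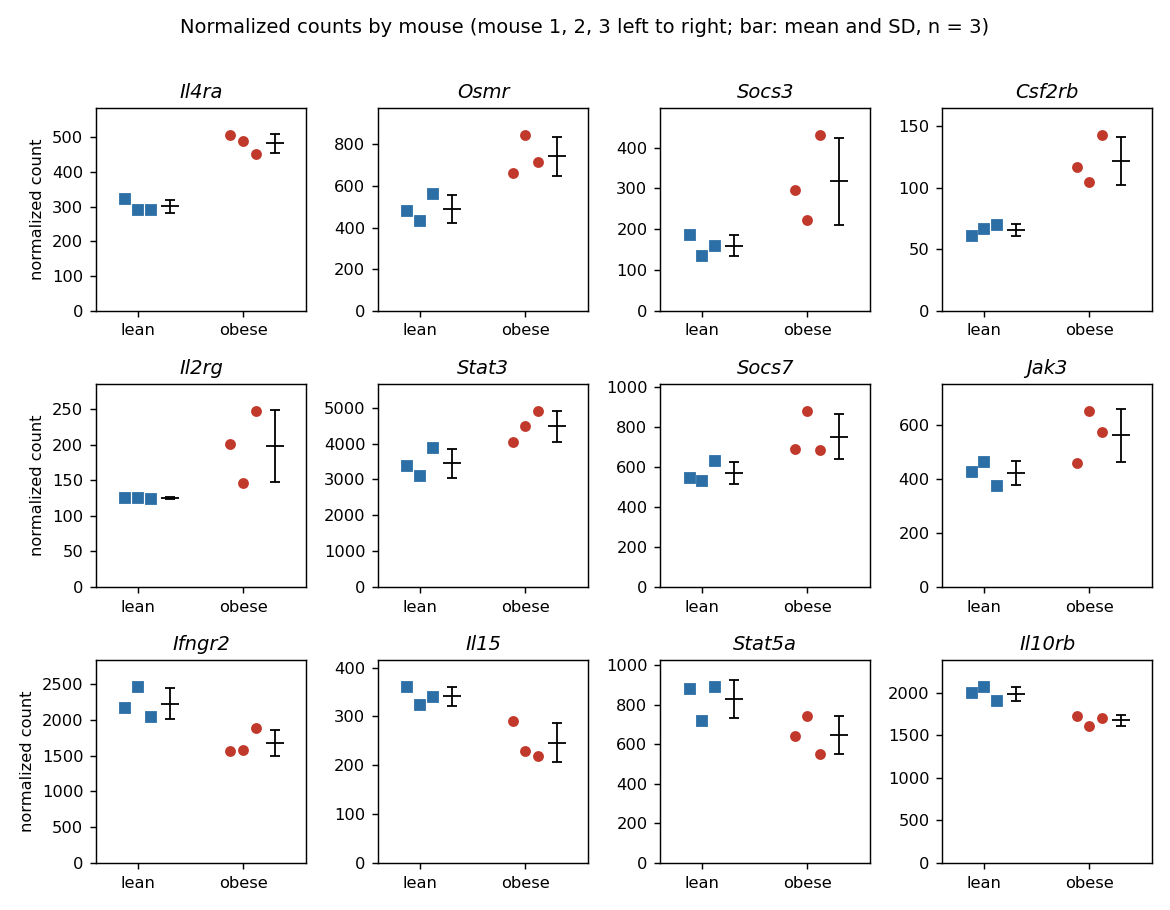
Normalized counts (y axes, from 0) of 12 members in each lean (blue squares) and obese (red circles) mouse, with mean and SD (n = 3). The groups are apart for all but Jak3 and Stat5a, where they overlap.

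The ligands of these receptors that are members, Il6, Il11 and Lif, were scarce as RNA. Il6 had 0, 9 and 4 reads in obese against 5, 5 and 3 in lean mice, with no separation of the groups. Il11, which signals through Il11ra1 and gp130, had 6, 3 and 11 reads in obese against 1, 0 and 1 in lean mice, that is 6.03, 3.06 and 12.5 and 1.12, 0 and 1.09 normalized counts. Each obese mouse lay above each lean mouse, but the lean mice stood below the 3-read limit and obese mouse 2 at it, and the gene fell under the filter and was not tested. Lif, at 15.1 to 34.1 and 21.2 to 25.1, overlapped. Among the other cytokines Csf1, the growth factor of macrophages, had means of 1035 ± 228 and 1026 ± 152 and a 95% interval of its log2 fold change from -0.37 to 0.37.

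Il15, a cytokine that sustains NK cells and memory T cells, was the one cytokine tested with an unadjusted p under 0.05, though it missed the adjusted threshold. It gave 291, 229 and 218 normalized counts in obese against 361, 322 and 340 in lean mice, with no overlap. This gave a log2 fold change of -0.48 (SE 0.16, 95% interval -0.82 to -0.13, adjusted p = 0.228), and the unadjusted p stayed under 0.05 in all 6 fits that left out 1 mouse. Among the chains that answer to it, Il2rg was higher in each obese mouse, and Il2rb and Il15ra overlapped.

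Stat3, the main STAT downstream of gp130, was among the more abundant members. It gave 4036, 4492 and 4919 normalized counts in obese against 3374, 3085 and 3890 in lean mice, so the lowest obese mouse lay just above the highest lean mouse. Its log2 fold change was 0.38 (SE 0.13, 95% interval 0.10 to 0.66, adjusted p = 0.235). Stat5a, which answers to growth hormone and to the common gamma and beta chain receptors, had 642, 742 and 551 in obese against 878, 716 and 890 in lean mice. Obese mouse 2 lay above lean mouse 2, and the log2 fold change was -0.36 (SE 0.15, adjusted p = 0.354). Stat3 and Stat5a are neighbors on chromosome 11 on opposite strands, and their annotated ends overlap by 72 bases, so reads there could be given to either gene if strand was not used in counting.

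The remaining STATs gave no call. Stat2, the partner in the type I interferon complex, read 350, 460 and 767 in obese against 397, 407 and 438 in lean mice, and the high mean came from obese mouse 3, without which the log2 fold change was -0.05. Stat5b, the close relative of Stat5a, had means of 2246 ± 437 and 2274 ± 352. Stat6, which carries the IL-4 and IL-13 signal, stood at 1690 ± 38.8 and 1616 ± 71.2, with an interval of the log2 fold change from -0.16 to 0.29. Stat4, a STAT of T and NK cells, had 3, 1 and 9 reads in obese against 2, 0 and 0 in lean mice and was not tested. The STATs tested thus included 1 with an unadjusted p under 0.05 on each side, and the other 3 on neither.

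Socs3 (chromosome 11, 117966079 to 117970047, minus strand), which binds gp130 and JAKs and is itself induced through STAT3, had the largest ratio of means among members with a mean over 100 normalized counts. It read 296, 223 and 432 in obese against 187, 133 and 160 in lean mice. The groups did not overlap, the obese mice spread widely, and the means were 317 ± 106 and 160 ± 26.8 (SD, n = 3), a ratio of 1.98. The log2 fold change was 0.94 (SE 0.24, 95% interval 0.42 to 1.47), and the adjusted p was 0.110 with limma, 0.108 with edgeR and 0.0069 with DESeq2. When 1 mouse was left out the log2 fold change was between 0.70 and 1.17, and the unadjusted p stayed under 0.05 each time. Socs7, a less studied relative, read 688, 880 and 686 against 544, 529 and 631, also without overlap, with a log2 fold change of 0.40 (SE 0.14, adjusted p = 0.281).

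The promoters of Socs3, Il7r and Ifnar2 hold the STAT palindrome TTCNNNGAA, which reads the same on both strands. Socs3 and Il7r were higher in every obese mouse, but Il7r passed the filter on low values only through its obese level. For Ifnar2 the groups overlapped. The stretches come from RefSeq promoters (GRCm38.p6, 250 bases before to 50 after a gene's start), run 5′ to 3′ on the gene's strand, and have the palindrome in capitals. They are chr11:117969452-117969580 on the minus strand for Socs3, chr15:9529950-9530078 on the minus strand for Il7r and chr16:91372533-91372637 on the plus strand for Ifnar2.
Socs3: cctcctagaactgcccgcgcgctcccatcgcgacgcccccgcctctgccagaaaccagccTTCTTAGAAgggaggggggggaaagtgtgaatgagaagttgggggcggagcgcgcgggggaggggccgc
Il7r: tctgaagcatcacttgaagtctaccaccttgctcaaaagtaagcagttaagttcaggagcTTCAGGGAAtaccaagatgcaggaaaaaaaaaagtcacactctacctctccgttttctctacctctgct
Ifnar2: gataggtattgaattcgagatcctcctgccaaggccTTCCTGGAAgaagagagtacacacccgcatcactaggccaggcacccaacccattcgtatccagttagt

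The palindrome starts 154 bases before the start of Socs3, 142 before that of Il7r and 214 before that of Ifnar2. The Socs3 stretch lies in an intron of a longer non-coding transcript of the gene in GENCODE, and the Il7r stretch overlaps an exon of another non-coding transcript. A RefSeq promoter was found for 38 of the 47 members, and TTCNNNGAA occurred in 5 of them (Cish, Ifnar1, Ifnar2, Il7r and Socs3), or 13.2%, against 9.55% of the 27025 genes with a promoter. The form with 1 more base, TTCNNNNGAA, occurred in 3 (Ifngr2, Il11 and Stat2), or 7.90%, against 8.01%. The 5 carriers of the first form ranged in log2 fold change from 0.01 for Ifnar2 to 2.10 for Il7r, a gene of few reads. The groups overlapped for Cish, Ifnar1 and Ifnar2. These matches describe the letters in a window and are not binding sites.

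Other SOCS members stayed within the spread between mice. Cish, a target of STAT5, had 1333, 1246 and 2065 normalized counts in obese against 1403, 1424 and 1394 in lean mice, where obese mouse 3 stood above the other 5. Its count is uncertain where the antisense gene Gm17041 overlaps it. Socs2, an inhibitor of growth hormone signaling, read 1762, 1407 and 1400 in obese against 1618, 1816 and 1641 in lean mice, with a log2 fold change of -0.16 (SE 0.12, adjusted p = 0.671). Socs1, the main inhibitor of interferon signaling, was low and variable, at 26.1, 29.6 and 60.2 and at 50.4, 57.5 and 32.8. Socs4, at 361, 454 and 318 and at 290, 329 and 375, overlapped, and so did Socs5 (568 ± 53.9 and 533 ± 44.7) and Socs6 (409 ± 27.0 and 388 ± 18.8). Of the 8 feedback inhibitors 2 thus had an unadjusted p under 0.05, both higher in obese atria, and none passed the adjusted threshold.

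Among the kinases only Jak3, which pairs with the common gamma chain, had an unadjusted p under 0.05. It read 458, 653 and 574 in obese against 427, 463 and 374 in lean mice, and obese mouse 1 lay just below lean mouse 2. Its log2 fold change was 0.40 (SE 0.16, adjusted p = 0.338), and the gene overlaps Insl3 on the same strand. Jak1, used by most of these receptors, read 2189, 2665 and 2343 against 2176, 2178 and 2430, with an interval of the log2 fold change from -0.17 to 0.34. Tyk2, which serves interferon and IL-10 family receptors, read 400, 468 and 385 against 410, 482 and 481, and Jak2, which serves the beta chain, leptin and interferon gamma receptors, had means of 598 ± 115 and 565 ± 39.3. For neither did the groups separate.

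The inhibitors outside the SOCS family gave no call. Pias1 and Pias3, which curb the binding of STATs to DNA, had means of 448 ± 34.6 and 412 ± 55.5 in obese and 429 ± 22.9 and 424 ± 49.3 in lean atria. Ptpn6, the phosphatase SHP-1 of blood cells, had 136 ± 21.0 and 129 ± 7.14. The log2 fold changes of all 3 lay between -0.04 and 0.07, and no interval among them went beyond 0.49 on either side of 0.

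The receptors for interferons and IL-10 held 2 of the 4 members that were lower in obese atria at an unadjusted p under 0.05. Ifngr2, the signaling chain of the interferon gamma receptor, was the most abundant member per length. It had 1572, 1576 and 1892 normalized counts in obese against 2173, 2465 and 2041 in lean mice, so each obese mouse lay below each lean mouse. The log2 fold change was -0.41 (SE 0.12, 95% interval -0.68 to -0.13, adjusted p = 0.184), and the unadjusted p stayed under 0.05 in all 6 fits that left out 1 mouse. Il10rb, the signaling chain shared by IL-10, IL-22 and the lambda interferons, had 1723, 1607 and 1703 against 1997, 2071 and 1906. The groups were again apart, with a smaller log2 fold change of -0.25 (SE 0.10, adjusted p = 0.368).

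For their partner chains the groups overlapped. Ifngr1, which binds interferon gamma, read 1296, 1173 and 1283 in obese against 1254, 1133 and 944 in lean mice, with a log2 fold change of 0.18 (SE 0.13, adjusted p = 0.634). Il10ra, the private IL-10 chain of blood-derived cells, read 104, 105 and 167 against 118, 57.5 and 87.4, with a log2 fold change of 0.54 (SE 0.30, adjusted p = 0.514). Both had a log2 fold change above 0. The type I interferon chains, Ifnar1 at 537 ± 62.7 and 516 ± 37.0 and Ifnar2 at 595 ± 48.8 and 592 ± 67.8, hardly differed in mean, with intervals of the log2 fold change from -0.24 to 0.35 and from -0.28 to 0.31.

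Ifngr2 and Il10rb belong to one cluster of receptor genes on chromosome 16 (GRCm38, plus strand), in the order Ifnar2 (91372783 to 91405589), Il10rb (91406164 to 91425834), Ifnar1 (91485238 to 91507441) and Ifngr2 (91547072 to 91565169). The gaps between them are 574, 59403 and 39630 bases. Along the cluster the log2 fold changes were 0.01, -0.25, 0.05 and -0.41, so the lower genes alternated with those near 0. An annotated gene, Gm21970, spans Ifnar2 and Il10rb on the same strand with a mean of 111 normalized counts, so the split of reads between the 3 is uncertain.

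The colony-stimulating factor receptors belong to myeloid cells, and 2 of the 3 were higher in each obese mouse. Csf2rb (chromosome 15, 78325990 to 78351000, plus strand), the common beta chain for GM-CSF, IL-3 and IL-5, had 117, 105 and 143 normalized counts in obese against 60.5, 66.4 and 70.0 in lean mice. With no overlap and a ratio of 1.85, its log2 fold change was 0.87 (SE 0.22, 95% interval 0.39 to 1.35, adjusted p = 0.103 with limma and 0.0511 with DESeq2). The neighboring near-identical gene Csf2rb2 read 83.4, 86.7 and 96.5 against 59.3, 34.9 and 76.5, and the split of reads between them is uncertain. Csf3r, the G-CSF receptor of neutrophils, read 47.2, 38.8 and 49.98 against 24.6, 30.8 and 26.2, with a log2 fold change of 0.71 (SE 0.31, adjusted p = 0.389). Csf2ra, the private GM-CSF chain, overlapped at 219 ± 54.3 and 222 ± 22.2.

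Some markers of blood-derived cells were also higher in obese atria. Of the 10 macrophage and monocyte markers 9 had a log2 fold change above 0 and 5 an unadjusted p under 0.05, all higher in obese atria. Cd163, a scavenger receptor of resident macrophages, was the one that passed the adjusted threshold (log2 fold change 0.95, SE 0.16, adjusted p = 0.0310), a call kept without obese mouse 3 and lost without any other single mouse (0.0862 to 0.138). The 6 neutrophil markers summed to 385, 93.8 and 108 in obese against 166, 152 and 122 in lean mice, so they overlapped. Most of that sum was Mmp9. The other 5, none of them tested, summed to 39.2, 16.3 and 10.2 against 5.60, 7.53 and 5.47. At this level of few reads the obese mice lay above the lean mice, in a sum that was formed after the values had been seen. Of the 5 only S100a9 did not overlap between the groups, and the mean of Cxcr2 was lower in obese mice (1.00 against 1.93). None of the markers in the macrophage, neutrophil, T and NK or B cell lists was at 0 in all 6 samples. The 8 adipocyte markers summed to 12757, 7720 and 6809 in obese against 7124, 5593 and 3615 in lean mice, so they overlapped. Most of that sum was Fabp4, the only one of them whose groups did not overlap. Of the 8, 7 had a log2 fold change above 0 and 1 below (median 0.60), and 2 an unadjusted p under 0.05, both higher. What part the macrophage, neutrophil, adipocyte and endothelial markers have in the differences reported here was not tested.

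**Figure D3:**
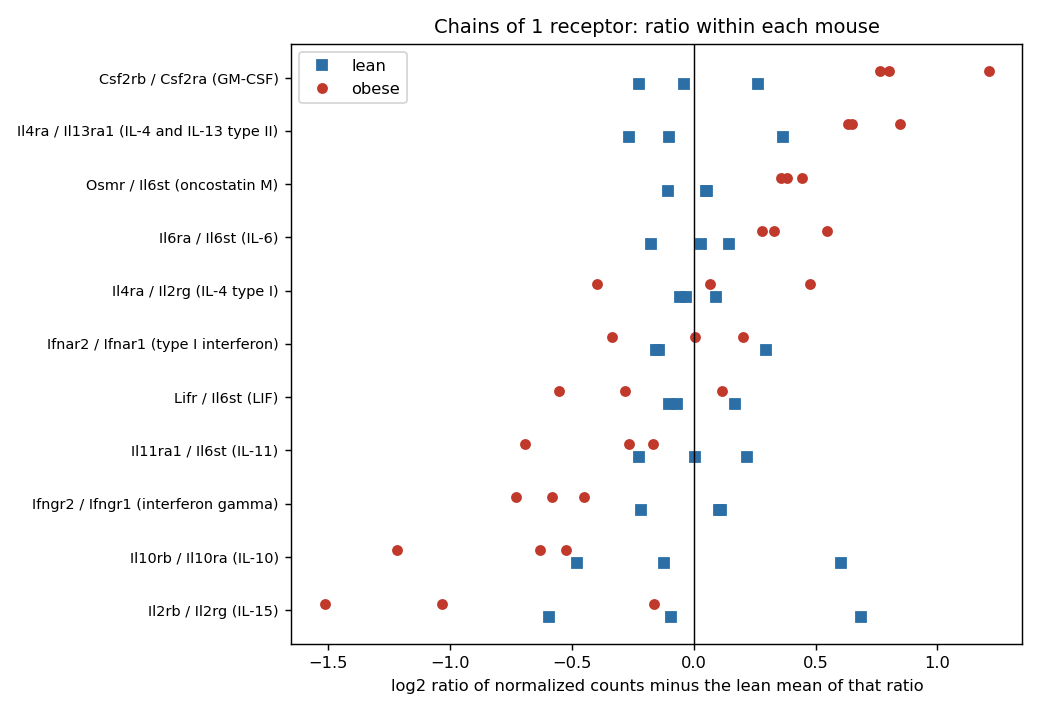
Log2 ratio of the normalized counts of both chains of a receptor in each mouse, minus the lean mean of that ratio (x axis), for 11 pairs. Obese mice (red circles) lie above all lean mice (blue squares) for the top 4 pairs and below them for Ifngr2 to Ifngr1 and Il10rb to Il10ra.

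The ratio of partner chains within a mouse does not depend on the size factor, and it was formed for 12 pairs after the values had been seen. A ratio could be computed for 11, as Il7r was at 0 in lean mouse 2. The obese mice lay above the lean mice for 4 pairs, below them for 2 and overlapped for 5. In each of the 6 pairs that separated, the first chain was itself a member whose groups did not overlap, and the second chain overlapped. These separations thus largely repeat those of the single genes and are no independent evidence. The share of other gene pairs that separate was not computed. Osmr to Il6st had the smallest SDs of the 4, at 0.159, 0.162 and 0.169 in obese against 0.129, 0.116 and 0.129 in lean mice, and Il6ra to Il6st stood at 0.0222, 0.0258 and 0.0214 against 0.0180, 0.0157 and 0.0195. Csf2rb to Csf2ra went from 0.254, 0.288 and 0.356 in the lean to 0.686, 0.502 and 0.516 in the obese mice, a difference of 0.93 in mean log2 ratio and the largest of the 6. Ifngr2 to Ifngr1 was 1.21, 1.34 and 1.47 in obese against 1.73, 2.18 and 2.16 in lean mice, a difference of -0.59 in mean log2 ratio. Each of the 6 separations has a two-sided exact permutation p of 0.1, the smallest that 3 mice against 3 allow. The pairs with Il6st share that denominator.

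**Figure D4:**
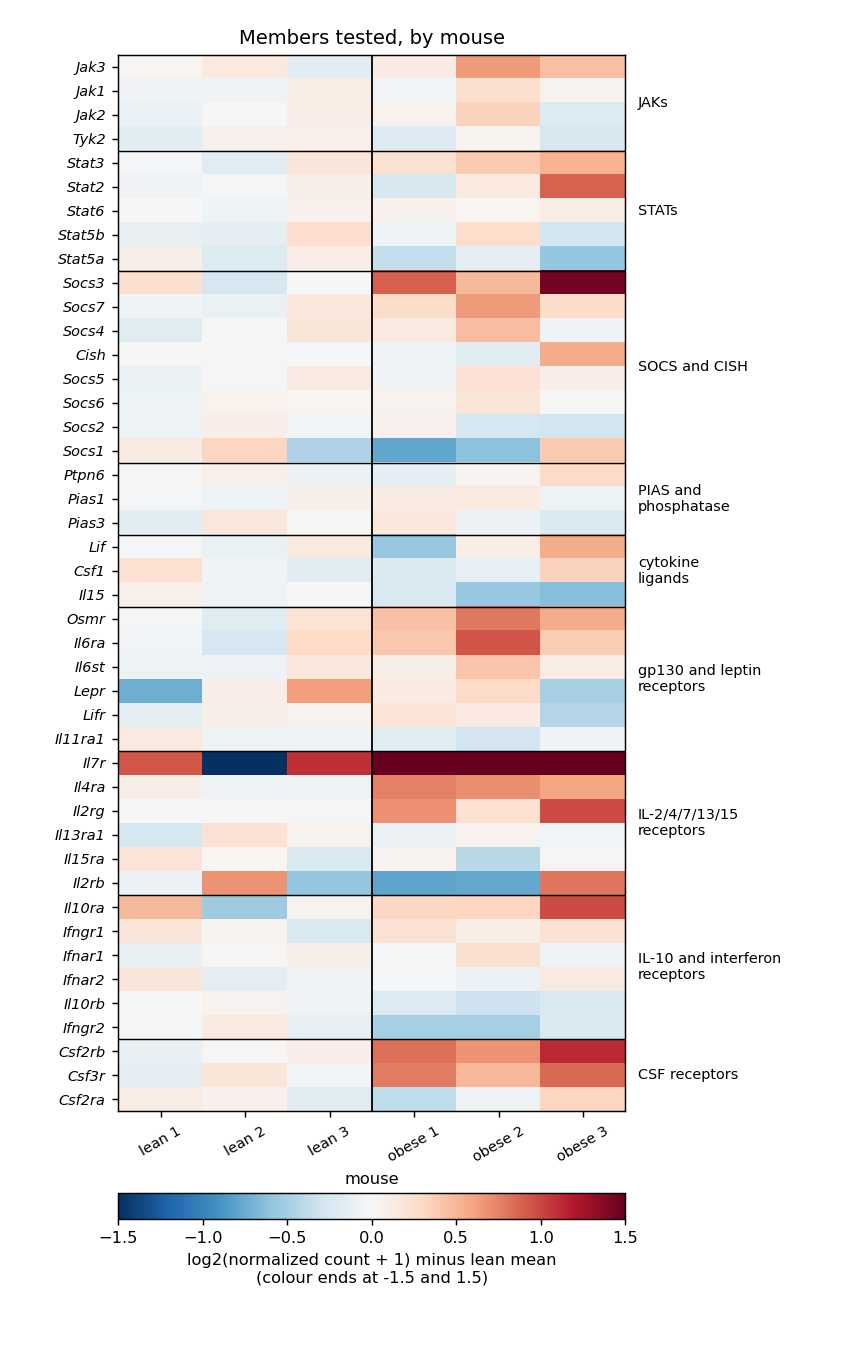
Log2(normalized count + 1) of the 44 members tested in each mouse, minus the lean mean of the gene (color). Obese mice 1, 2 and 3 share red cells for Il4ra, Osmr, Socs3 and Csf2rb, while obese mouse 3 alone is red for Stat2 and Cish.

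The obese mice differed among themselves. Of the 44 members tested, obese mouse 3 had the highest value of all 6 mice for 16 and the lowest for 9, obese mouse 2 had the highest for 13 and obese mouse 1 for 3. The genes for which obese mouse 3 was the highest included Socs3, Stat2, Stat3, Cish, Il2rb, Il2rg, Il10ra and Csf1, and its T and NK cell marker sum was the highest as well. Obese mouse 2, with the highest Osmr, Il6ra, Il6st, Jak3 and Socs7, had the lowest T and NK cell sum. What part these cells have in the values of mouse 3 was not tested. Without obese mouse 3, 7 members were higher and 3 lower at an unadjusted p under 0.05, in place of 11 and 4. That is 22.7% of the members beside 14.5% of all genes, where all 6 mice gave 34.1% and 12.2%. Without obese mouse 2 the counts were 6 and 3 (20.5%, beside 9.60% of all genes). Without lean mouse 2 they were 7 and 3 (22.7%, beside 8.15% of all genes). Il4ra, Osmr, Csf2rb, Socs3, Ifngr2 and Il15 were the 6 members that stayed under 0.05 whichever mouse was left out.

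**Figure D5:**
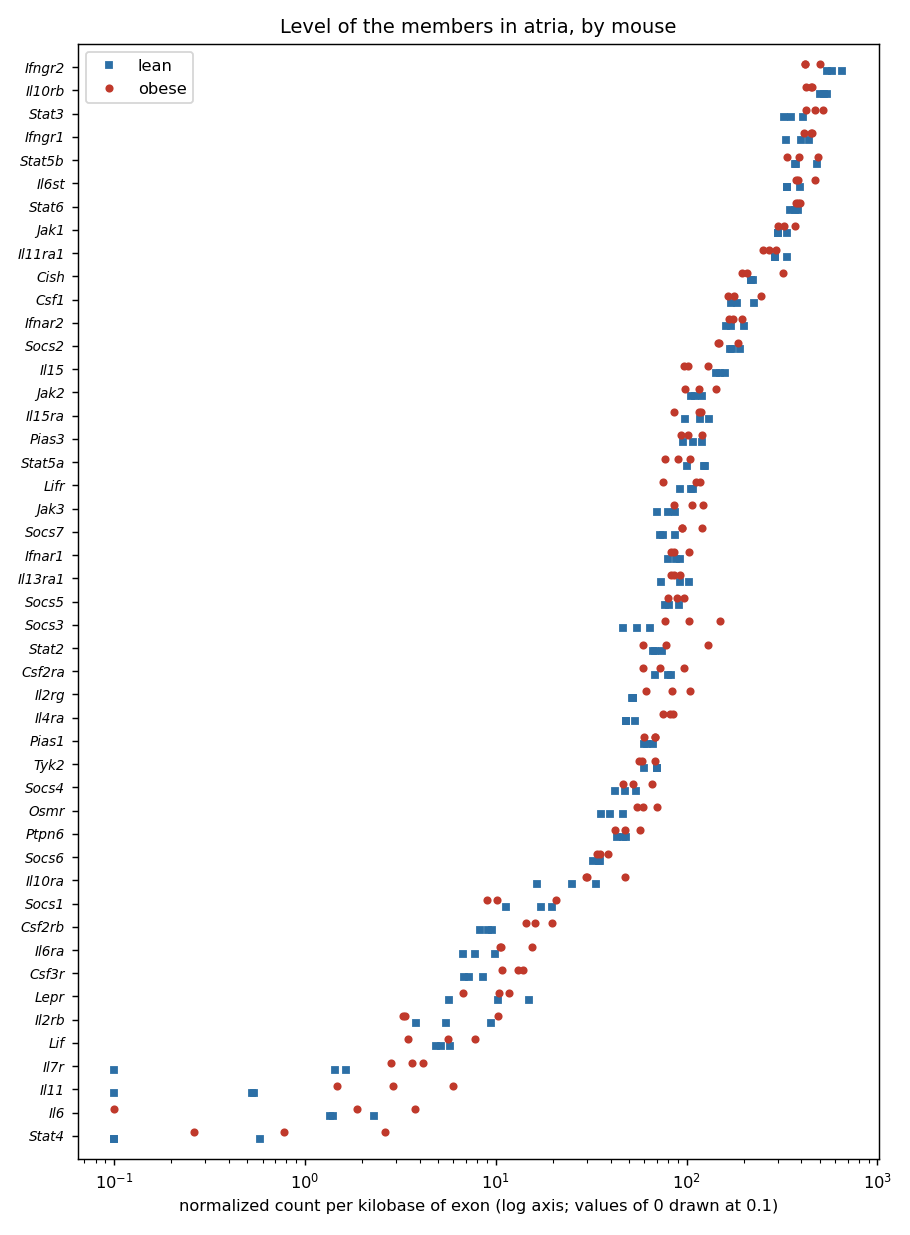
Normalized count per kilobase of exon (log axis) of the 47 members in each lean (blue squares) and obese (red circles) mouse, ordered by mean level. Ifngr2 is the highest and Stat4 the lowest, and values of 0 are drawn at 0.1.

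Levels between genes were compared per kilobase of exon, with the union of all annotated exons as the length. The highest mean levels over the 6 mice were those of Ifngr2 (519 per kilobase), Il10rb (482), Stat3 (416), Ifngr1 (415), Stat5b (408), Il6st (382) and Stat6 (376), and the values of neighbors in this order overlapped. Among the kinases Jak1 came first at 322 per kilobase, followed by Jak2 (116), Jak3 (91.8) and Tyk2 (63.7). Among the feedback genes Cish led at 230, above Socs2 (169) and Socs3 (82.5), and Socs1 was the lowest at 14.7. The private gp130 chains were far below gp130 itself, with Osmr at 50.9 and Il6ra at 10.2 per kilobase, while Il11ra1 reached 290. The lowest members were Il7r (2.29), Il11 (1.91), Il6 (1.79) and Stat4 (0.71), that is 2 lymphoid genes and 2 cytokines. Ifngr2 stood at 446 per kilobase in obese and 591 in lean atria, and Socs3 at 110 and 55.3.

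Of 74 further genes of the pathway (28 ligands, 21 receptors and 25 signal proteins) 47 were tested, and none passed the adjusted threshold with limma. At an unadjusted p under 0.05 there were 4 higher and 3 lower in obese atria, 14.9% of those tested, close to the 12.2% of all genes. DESeq2 called 2 higher and 1 lower, Ptpn11 and Grb2 among them, and edgeR none, and limma called 2 and 1 without obese mouse 3 and 1 and 0 without lean mouse 1. Ptpn11, the phosphatase SHP-2 that links gp130 to the MAP kinases, read 5776, 7033 and 4861 in obese against 3767, 3440 and 3841 in lean mice, without overlap (log2 fold change 0.66, SE 0.14, adjusted p = 0.0657). Its adaptor partner Grb2 lay lower in each obese mouse, at 1791, 1535 and 1527 against 2089, 2250 and 2118 (log2 fold change -0.42, SE 0.11, adjusted p = 0.129). Among the ligands Ctf1, cardiotrophin-1, a gp130 cytokine of the heart, was lower in each obese mouse. It read 76.3, 74.4 and 56.8 against 148, 86.2 and 91.8 (log2 fold change -0.61, SE 0.26, adjusted p = 0.383). Of the 28 ligands 19 were under the filter on low values.

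The list of 18 genes known to be induced through STAT3 had 17 tested, and since it was drawn up with earlier results of these data known, its common direction is a description and no independent evidence. All 17 had a log2 fold change above 0, also with quantile normalization and with edgeR's and DESeq2's scaling, although Fgl2 was below 0 without obese mouse 2, lean mouse 1 or lean mouse 2 and Ccnd1 without obese mouse 3. Of the 17, 9 (52.9%) had an unadjusted p under 0.05, all higher, where 12.2% of all genes did, and 5 (29.4%, against 18% of all genes) did not overlap between the groups, with a median log2 fold change of 0.61 beside 0.005 for all genes. Serpina3n, an acute-phase protease inhibitor, passed the adjusted threshold, at 3931, 2981 and 1085 normalized counts in obese against 554, 409 and 322 in lean mice (log2 fold change 2.48, SE 0.39, adjusted p = 0.0234). That call was kept without obese mouse 3 and lost without any other single mouse (0.0528 to 0.126). Cebpd, a transcription factor of the acute phase, read 645, 441 and 649 against 342, 308 and 244 (adjusted p = 0.0550 with limma and 0.000367 with DESeq2). Cebpb, its relative, read 965, 875 and 804 against 481, 514 and 245, and Lcn2, lipocalin 2, read 288, 146 and 62.5 against 29.1, 18.5 and 37.2, both with an adjusted p of 0.0657. Many of these genes also answer to NF-kB, glucocorticoids or other signals, so the list is not a measure of STAT3 activity. Obese mouse 3, the highest for Socs3 and Stat3, was the lowest obese mouse for Serpina3n, Lcn2 and Cebpb and the highest for others, such as Cebpd, Junb, Pim1 and Myc.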

How the data were processed

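RNA of right and left atrial tissue of 3 obese (HFD) and 3 lean (control diet) mice was sequenced by the authors from directional libraries. They aligned the reads with STAR to GRCm38 (Ensembl 79), kept uniquely mapped reads, used Salmon to assign them to genes and DESeq2 for the comparison. The use of strand in counting is not given in the sources used here. The deposited signal is the authors' read count per gene divided by one size factor per sample, called normalized count. The log2 fold change (and its error), p-value, adjusted p-value, Wald statistic and ranking score that were deposited beside it are the authors' own comparison and were not used.

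Groups were taken from the sample titles. Members were matched by symbol, ignoring case. Differences were tested two-sided with limma 3.58.1 under R 4.3.3, fitting log2(normalized count + 1) by lmFit and moderating with a trended eBayes. The 15275 genes whose mean over the 6 samples reached 10 entered, p-values were adjusted over them by Benjamini-Hochberg, and the threshold was 0.05. Fold changes on that scale understate those of low genes. Reads were recovered by dividing by the smallest step of each sample, which gave whole numbers (tolerance 0.001) for 100% of values, and were tested with edgeR 4.0.16 and DESeq2 1.42.0. On simulated data of 15275 genes limma recovered 91 of 100 genes changed by a log2 fold change of 1 and 99 of 100 changed by 2. It called 7 unchanged genes. The simulation gave all genes the same dispersion, that is the same relative spread between mice beyond counting error. All members tested but Il7r had a log2 fold change below 1 in size, so these shares do not give the power for them. Exon lengths came from GENCODE for GRCm38 and promoters from RefSeq (GRCm38.p6).

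The alternatives were quantile normalization, no variance trend, no filter, mitochondrial genes left out, at least 10 in every sample, a pseudocount of 0.1, edgeR, DESeq2, a replicate block and each mouse left out in turn. Receptor chain ratios, counts at an unadjusted p, counts without Il7r and marker sums without their leading genes were added after seeing the data. The members and lists were chosen with earlier results of these data known. All 47 members are named, with values in every sample for any past the adjusted threshold, the 25 with the smallest p and those under the filter. Of other lists at most 4 genes are named, those with the smallest p among genes whose groups do not overlap, and any gene a result turns on. One gene of the further pathway list is not reported here. The labels do not say whether each sample is a separate animal, so p-values measure only the spread between these samples, which may be technical.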

Additional observations from a re-analysis of the deposited data

How the results depend on the processing

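The number of genes past the adjusted threshold was 114 and went to 0 with no variance trend and to 470 with DESeq2 on recovered reads, and it ranged from 14 to 318 when 1 mouse was left out. The number of members past it, 1, became 0 with quantile normalization, without a variance trend, with edgeR TMM and under the replicate block, and 3 with DESeq2 (Il4ra, Osmr and Socs3), and ranged from 0 to 1 when 1 mouse was left out. The adjusted p of Il4ra ranged from 0.0026 to 0.194 over all alternatives. The members with an unadjusted p under 0.05, 11 higher and 4 lower, ranged from 6 to 10 higher and from 2 to 3 lower when 1 mouse was left out, and 2 were lower without a variance trend and under the replicate block. Among the further pathway and STAT3-induced genes 1 passed the adjusted threshold, against 0 without a variance trend, 3 with no filter, 2 with a minimum of 10 in every sample, 9 with DESeq2, 6 under the replicate block and 0 to 6 when 1 mouse was left out. Their causes were not tested beyond the smaller number of samples or the other set of genes that an alternative itself brings.

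The replicate numbers gave no sign of pairing. The deviations of same-numbered mice correlated at 0.12, -0.03 and -0.004, and those of differently numbered mice at between -0.15 and 0.16. With 3 mice per group these correlations cannot exclude a pairing or a shared batch. With the number as a block 157 genes and no member passed the adjusted threshold, in place of 114 genes and 1 member.

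Of 703 log2 fold changes of members under the alternatives 657 kept their direction and side of the threshold, 9 were weaker and 2 stronger. The 35 that reversed belonged to 16 members, none with an unadjusted p under 0.05 in the test as reported. Outside the fits that left out 1 mouse these were Csf1 (-0.046) and Ifnar2 (-0.024) with quantile normalization. When 1 mouse was left out, the log2 fold change ranged from -0.076 to 0.20 for Jak2, -0.046 to 0.52 for Stat2, -0.17 to 0.10 for Stat5b, -0.13 to 0.24 for Cish, -0.15 to 0.040 for Pias3, -0.045 to 0.17 for Ptpn6, -0.24 to 0.33 for Lif, -0.17 to 0.12 for Csf1, -0.16 to 0.16 for Lifr, -0.39 to 0.28 for Lepr, -0.78 to 0.081 for Il2rb, -0.16 to 0.081 for Il13ra1, -0.23 to 0.031 for Il15ra, -0.040 to 0.11 for Ifnar1, -0.055 to 0.10 for Ifnar2 and -0.23 to 0.12 for Csf2ra. With 3 mice per group, 23 of the 44 members had an interval within 0.5 on either side of 0 and 35 within 1.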
